A study of Mus musculus with 2 samples.

Results

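The genes described here carry signals that hold blood cells in the marrow and drive the growth of neutrophils. They are the chemokine Cxcl12 and its receptor Cxcr4, the granulocyte growth factor Csf3 (G-CSF) and its receptor Csf3r, the growth factor Csf2 (GM-CSF) and the receptor chain Csf2rb, the stem cell factor Kitl, and the adhesion molecule Vcam1. They were chosen by symbol, with no limit set on a measured value, and all 8 were among the 32285 genes listed for each cell. Single-cell RNA-seq was available for cells around a circular calvarial defect of 1.8 mm in the frontal bone of male C57BL/6 mice, 2 months old. One library came from mice treated with gambogic amide (GA), a small molecule agonist of the nerve growth factor receptor TrkA, and 1 from mice given the vehicle. By the labels, GA was injected intraperitoneally at 1.2 mg/kg (the dose in the methods differs) in 100 µL of 10% DMSO, starting 24 h before injury and then daily for 1 week, and control mice received 10% DMSO on the same schedule. Each library pooled 5 mice at 7 days after injury. The tissue was the piece of cranial bone that held the defect, cut to an edge of about 3 mm and digested with collagenase in 6 rounds. Red cells were lysed and the remaining cells were not sorted. With 1 library per condition there is no replicate check, and each difference below compares the 2 libraries and not the conditions.

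CXCL12 is made by stromal and endothelial cells of the marrow and binds CXCR4 on haematopoietic cells, which keeps stem cells, B cell precursors and neutrophils in place. G-CSF drives granulocyte production through its receptor and also releases neutrophils from the marrow, partly by lowering CXCL12 and by shifting neutrophils from CXCR4 towards the release receptor CXCR2. GM-CSF signals through a private alpha chain and the beta chain encoded by Csf2rb, which is shared with interleukin 3 and interleukin 5. Kitl feeds KIT-bearing stem cells, progenitors and mast cells, and VCAM1 anchors cells that bear the integrin alpha 4 beta 1.

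In the GRCm38 annotation, Cxcl12 lies at chr6:117168535-117181367 on the plus strand and Cxcr4 at chr1:128588199-128592293 on the minus strand. Csf3 lies at chr11:98701263-98703629 and Csf3r at chr4:126024550-126044440, both on the plus strand. Csf2 lies at chr11:54247271-54249667 on the minus strand, Csf2rb at chr15:78325752-78353847 on the plus strand, Kitl at chr10:100015630-100100416 on the plus strand, and Vcam1 at chr3:116109949-116129688 on the minus strand. Csf2rb has a close copy, Csf2rb2, at chr15:78282507-78305721, so reads of one can be credited to the other and its counts are uncertain to that degree. RefSeq promoter windows on GRCm38.p6 were matched for 5 of the 8 genes (Cxcl12, Cxcr4, Csf3r, Csf2 and Kitl). The windows of Cxcl12 and Cxcr4 are shown because the results below turn on this ligand and its receptor. Each holds the 250 bases before the start, 5′ to 3′ on the strand of the gene, with the GC box GGGCGG in capitals on either strand (CCGCCC where it lies on the other strand, overlapping copies included).
Cxcl12, chr6:117168285-117168534, plus strand: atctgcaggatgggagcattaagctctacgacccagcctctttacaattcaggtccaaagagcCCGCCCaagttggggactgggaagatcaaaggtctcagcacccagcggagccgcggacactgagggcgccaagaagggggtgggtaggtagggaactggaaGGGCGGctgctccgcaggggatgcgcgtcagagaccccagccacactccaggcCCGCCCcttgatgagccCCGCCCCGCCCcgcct
Cxcr4, chr1:128592300-128592549, minus strand: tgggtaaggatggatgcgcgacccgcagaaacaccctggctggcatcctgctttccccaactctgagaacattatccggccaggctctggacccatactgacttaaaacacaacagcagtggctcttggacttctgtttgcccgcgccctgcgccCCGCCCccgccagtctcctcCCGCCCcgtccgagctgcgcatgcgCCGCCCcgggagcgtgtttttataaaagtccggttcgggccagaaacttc
The motif occurred 5 times in the Cxcl12 window and 3 times in the Cxcr4 window. It was present in 4 of the 5 matched windows and in 32.7% of all 32851 promoter windows of the same length. The hypoxia-response core ACGTG was in 0 of the 5 and in 16.6% of all. These matches describe letters and not binding.

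The GA library held 9322 barcodes with 182949385 UMIs (unique molecular identifiers, the counted transcripts), and the control library held 8718 barcodes with 214993030 UMIs. After limits on depth and mitochondrial share and removal of the highest doublet scores, 8380 GA cells and 7553 control cells remained, of which 18 barcodes occurred in both libraries. Cells were grouped by marker genes into classes called, for example, neutrophil-like. Neutrophil-like cells made up 52.6% of GA cells and 27.6% of control cells. The mesenchymal lineage, that is mesenchymal-like and osteoblast-like cells together, made up 10.3% and 22.9%. Because mesenchymal cells were deep, at medians of 50322 and 51036 UMIs, they held 29.3% of all UMIs in GA and 52.5% in control. Neutrophil-like cells were shallower, at medians of 7059 in GA and 5092 in control. S100a8, an abundant neutrophil transcript, gave a UMI in 78.6% of GA and 39.4% of control B-like cells. Col1a1, a mesenchymal transcript, gave a UMI in 59.8% and 65.1% of them. Transcripts of other classes were thus found in B-like cells of both libraries. The parts of free RNA and of remaining doublets in this were not tested.

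The ligands and the receptors were spread differently over the classes. Cxcl12, Kitl and Csf2 were held mainly by the mesenchymal lineage, Csf3 by macrophage-like and mesenchymal cells, and Csf3r by neutrophil-like cells, while Cxcr4 and Csf2rb were found in neutrophil-like, macrophage-like and dendritic-like cells. Macrophage-like cells thus held both a growth factor and receptors. Levels below are in CPM, the sum of a gene's UMIs in 1 class of 1 library scaled by all UMIs of that class. Intervals are exact 95% intervals that cover counting error only, since the mice of a library cannot be told apart. Differences are log2 ratios of GA over control.

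**Figure D1:**
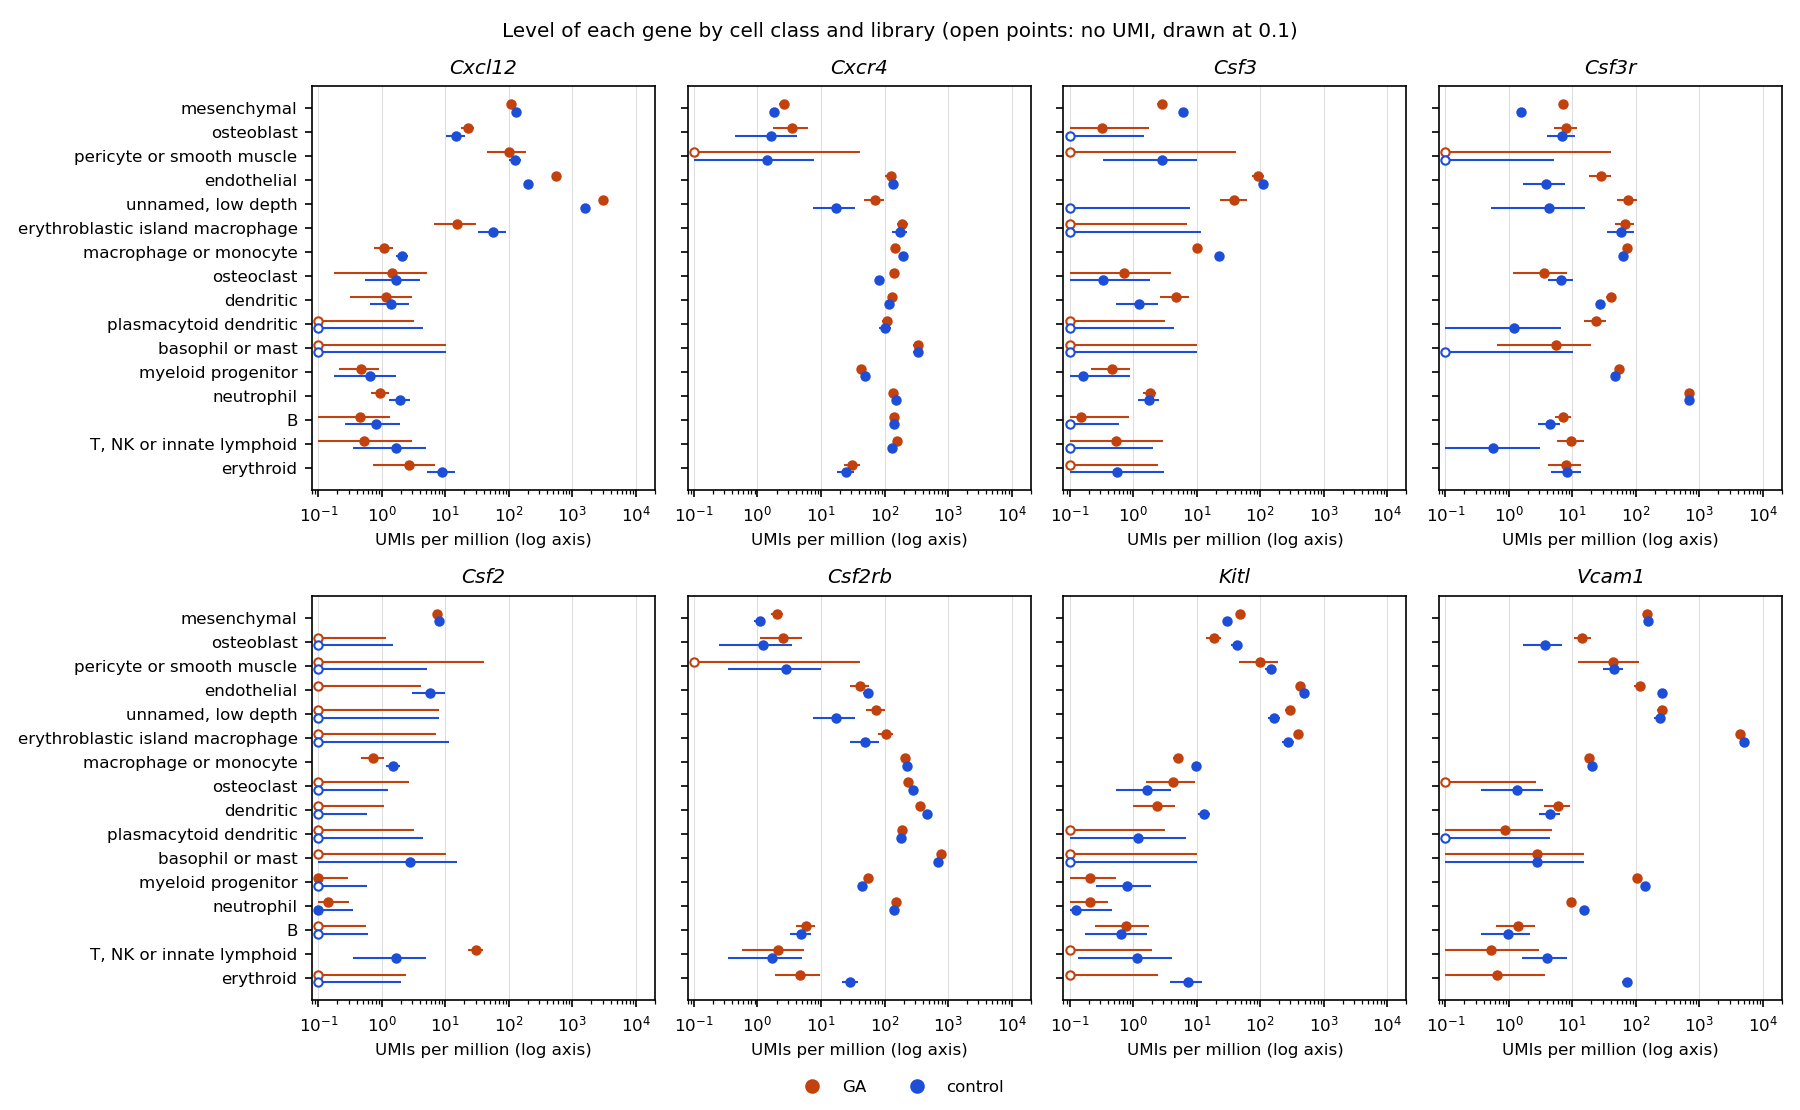
Level of each gene (CPM, log axis) in 16 cell classes, named after the markers of the cells they resemble, with GA in orange, control in blue, and lines for exact 95% Poisson intervals. Cxcl12 sits highest in the low-depth, endothelial and stromal classes, Kitl in endothelial and island macrophage classes, Csf3r peaks in the neutrophil class at 694 and 676 CPM, and Cxcr4 lies near or above 100 CPM in most blood cell classes.

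Cxcl12 was a stromal transcript in both libraries, and the cells that held it were fewer in GA. Over all cells it stood at 42.2 CPM in GA (6784 UMIs) and 74.4 CPM in control (13668 UMIs), a log2 ratio of −0.82 [−0.86, −0.77]. Within the mesenchymal lineage it was 101.3 CPM in GA and 126.7 CPM in control, a log2 ratio of −0.32 [−0.37, −0.27]. The gap over all cells was thus larger than the gap inside the main sender class. When every class was given the same share of UMIs in both libraries, the log2 ratio over all cells was −0.06. This value includes the endothelial-like and low-depth classes, where Cxcl12 was higher in GA and a few cells held most of it (below). It was not recomputed without them. A Cxcl12 UMI was found in 72.2% of the 867 GA cells and 76.6% of the 1726 control cells of the lineage. In neutrophil-like cells, which do not make the chemokine, the shares were 0.840% and 1.39% and serve as a background at their lower depth. In the deeper macrophage-like or monocyte-like cells the shares were 2.54% and 3.81%.

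The lineage was a mixture of clusters with very different Cxcl12 levels. Fibroblastic progenitor-like cells were the richest, with 701 CPM in GA and 573 CPM in control in cluster 9 and 254 and 249 CPM in cluster 4. Cd34-high cells of clusters 3 and 5 followed, at 208 and 195 CPM and at 164 and 171 CPM. Multilineage progenitor-like cells of cluster 1 held 50.7 and 26.2 CPM, and osteoblast-like cells held the least, at 22.5 and 14.6 CPM. The richest clusters were also those with few GA cells, since cluster 4 had 22 GA and 227 control cells and cluster 9 had 23 and 107. Of the 12 clusters with at least 20 cells in each library, Cxcl12 was higher in GA in 9, of which 7 had an interval above 0, and it was lower with an interval below 0 in 1 (cluster 2, Cd34-high, 69.0 and 88.5 CPM). At equal cluster shares the lineage ratio was 0.18, the opposite sign of −0.32. Inside most clusters the level was therefore not lower in GA.

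**Figure D2:**
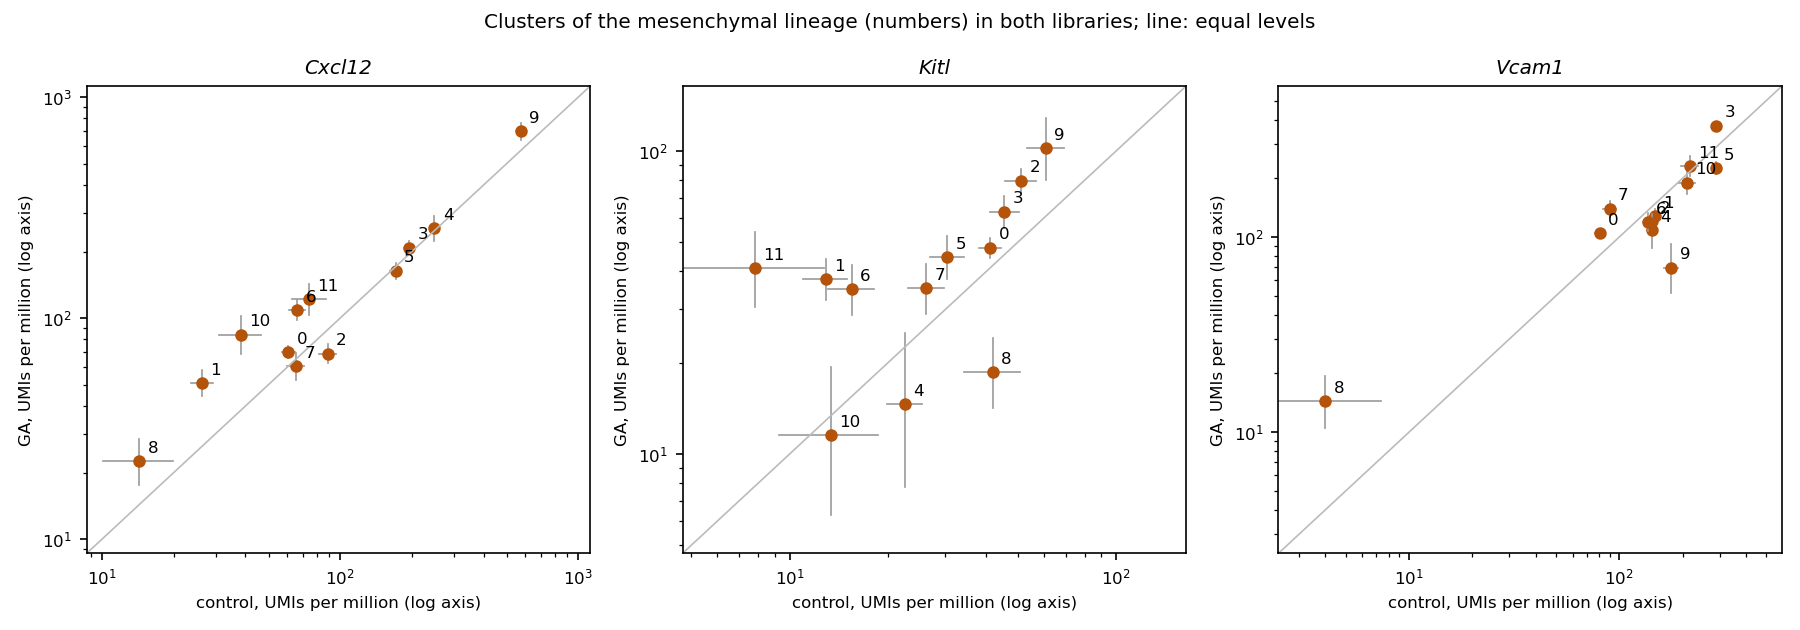
Cxcl12, Kitl and Vcam1 in 12 clusters of the mesenchymal lineage, control on the horizontal and GA on the vertical axis (CPM, both log axes), with lines for exact 95% intervals and a diagonal of equal levels. Most clusters lie above the diagonal for Cxcl12 and Kitl (9 of 12 each), while Vcam1 lies above in 5 and below in 7.

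Endothelial-like cells showed the reverse difference for Cxcl12, from few cells. The gene stood at 560.3 CPM in 40 GA cells (503 UMIs) and 198.0 CPM in 51 control cells (414 UMIs), a log2 ratio of 1.50 [1.31, 1.69]. Sinusoidal endothelial-like cells, the vessel lining through which blood cells leave the marrow, held 811 and 245 CPM. The 5 cells with the most UMIs held 425 of the 503 GA UMIs and 258 of the 414 control UMIs, so a handful of cells set both levels, and 1 GA cell held 247. That cell also carried marrow stromal transcripts, with 17 UMIs of Grem1, 8 of Ebf3, 8 of Lpl and 5 of Lepr. It held 16 UMIs of the endothelial gene Cdh5 and 7 of Stab2, and whether it was a mixture was not tested. A UMI was present in 65.0% of GA and 60.8% of control endothelial-like cells, which differ by less than their counting error. Pericyte-like or smooth muscle-like cells held 99.8 CPM in 5 GA cells and 125 CPM in 27 control cells, with an interval of the log2 ratio from −1.50 to 0.66.

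Part of the Cxcl12 of both libraries came from a few cells in a cluster that carried no class name. This cluster of 72 GA and 85 control cells, at a median of 2781 UMIs, was led by Gpc6, Ptprd, Cxcl12 and Ebf1. It was split from the macrophage-like or monocyte-like class, so only macrophage and monocyte marker lists were tried on it. With 0 markers found for the best-scoring list (Arg1 macrophages) it stayed unnamed, and it was set apart for its low depth. It held 20.6% of Cxcl12 UMIs in GA (1400 UMIs) and 5.28% in control (721 UMIs). Within it, 6 GA cells carried 1359 of these UMIs at 15808 CPM and 7 control cells carried 704 at 11423 CPM, where a Cxcl12-rich cell had at least 20 Cxcl12 UMIs and at least 2000 CPM. The Cxcl12-rich GA cells were deeper than the cluster's median, with 7974 to 21965 UMIs each. In the richest GA cell 720 of 21965 UMIs (3.28%) were Cxcl12, and in the richest control cell 306 of 12434 (2.46%). These 6 and 7 cells also carried transcripts listed as marrow stromal markers. Of these markers, at least 1 UMI was found for Adipoq in 5 and 4 cells, Lpl in 6 and 6, Hp in 6 and 6, Ebf3 in 5 and 6, Agt in 6 and 4 and Grem1 in 5 and 3. Lepr, the leptin receptor that marks CXCL12-abundant reticular cells, was not on that list and was found in 6 of 6 and 7 of 7 cells. The same cells also held Kitl at 1431 and 925 CPM and Vcam1 at 1245 and 1217 CPM. Cells of this kind were thus a small set in each library with all 3 stromal signals. Without the whole low-depth cluster, the log2 ratio of Cxcl12 over all cells was −1.07, and without all 11 GA and 11 control Cxcl12-rich cells it was −1.19.

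Kitl was higher in the mesenchymal lineage of the GA library, across most of its clusters. It stood at 46.5 CPM in GA (2185 UMIs) and 30.1 CPM in control (2904 UMIs), a log2 ratio of 0.63 [0.54, 0.71], and a UMI was found in 55.8% and 44.0% of cells. At equal cluster shares the ratio was 0.48, and in 9 of 12 clusters the interval lay above 0. Cluster 9 (fibroblastic progenitor-like) held 102 and 60.8 CPM, cluster 2 (Cd34-high) 79.7 and 51.1 CPM, and cluster 1 (multilineage progenitor-like) 37.8 and 12.9 CPM. Osteoblast-like cells went the other way, at 18.6 CPM in GA and 42.6 CPM in control, a log2 ratio of −1.19 [−1.68, −0.72], with 30 of the 58 GA UMIs and 93 of the 105 control UMIs in 5 cells each. A few control cells thus set the osteoblast level, while a UMI was found in 31.6% of GA and 24.1% of control osteoblast-like cells.

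Outside the lineage, Kitl was a vascular and macrophage transcript. Endothelial-like cells held 423 CPM in GA and 487 CPM in control, a log2 ratio of −0.20 [−0.38, −0.03]. Erythroblastic island macrophage-like cells, which nurse red cell precursors, held 393 and 278 CPM in 43 GA and 19 control cells. Other macrophage-like or monocyte-like cells held 5.01 and 9.81 CPM, a log2 ratio of −0.97 [−1.24, −0.70], and 0.02 at equal cluster shares. Over all cells Kitl was 19.4 CPM in GA and 26.0 CPM in control, a log2 ratio of −0.43, and 0.32 at equal class shares. The sign over all cells was therefore opposite to that in the main sender class. Its receptor Kit was at 58.5 and 59.9 CPM in myeloid progenitor-like cells, which differ by less than their counting error.

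Vcam1 marked stroma, island macrophages and early granulocyte precursors. Island macrophage-like cells held it at 4344 CPM in GA and 5036 CPM in control, a log2 ratio of −0.21 [−0.31, −0.12], and a UMI was found in 41 of 43 and 19 of 19 cells. The mesenchymal lineage held 142.7 and 153.4 CPM, a log2 ratio of −0.10 [−0.15, −0.06] and 0.01 at equal cluster shares. Clusters differed in both directions, with 372 and 290 CPM in cluster 3 (Cd34-high) and 69.6 and 177 CPM in cluster 9 (fibroblastic progenitor-like). Endothelial-like cells held 116 and 257 CPM, a log2 ratio of −1.15 [−1.47, −0.85], and their sinusoidal cells 120 and 323 CPM. In the sinusoidal cells 5 cells held 357 of the 408 control UMIs, and a UMI was found in 42.9% and 47.1% of cells. In the endothelial-like cells Vcam1 was lower in GA and Cxcl12 higher, while the median gene of the class was at 0.01.

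Vcam1 was also found in cells of the granulocyte line before maturity. Myeloid progenitor-like cells held 104 CPM in GA and 138 CPM in control, a log2 ratio of −0.41 [−0.53, −0.30]. Promyelocyte-like cells of clusters 2 and 5 held 377 and 323 CPM and 343 and 653 CPM. Dividing neutrophil precursor-like cells held 28.5 and 42.4 CPM, and each later neutrophil cluster held less than 6 CPM in both libraries. Among the neutrophil clusters, the one with the most Vcam1 was thus the one with the least Csf3r. Over all cells Vcam1 was 76.2 and 105 CPM, a log2 ratio of −0.46, and −0.15 at equal class shares. Its integrin receptor chain Itga4 was highest among the named blood classes in T, NK or innate lymphoid-like cells, at 419 and 406 CPM. It was at 268 and 257 CPM in B-like cells and at 38.8 and 38.4 CPM in neutrophil-like cells.

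**Figure D3:**
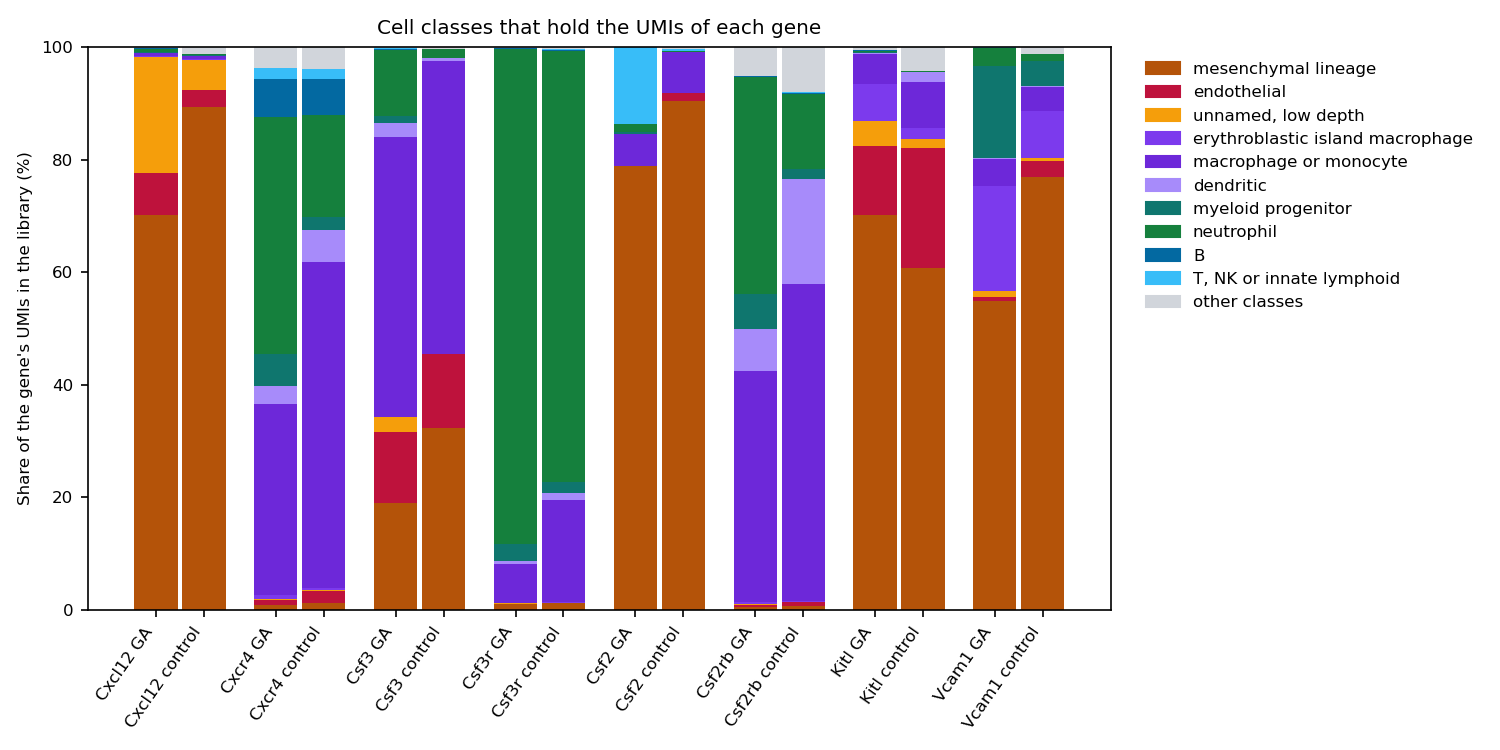
Share of the UMIs of each gene (%) held by each cell class in the GA and control libraries. The mesenchymal lineage holds 70.2% of Cxcl12 in GA and 89.4% in control, and neutrophil-like cells hold 42.0% and 18.1% of Cxcr4.

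Cxcr4 in neutrophil-like cells differed between libraries no more than the median gene of those cells. The gene was at 138 CPM in GA (5887 UMIs) and 154 CPM in control (2414 UMIs), a log2 ratio of −0.16 [−0.23, −0.09]. The median gene of that class was at −0.15, so relative to it the ratio was −0.01. A Cxcr4 UMI was found in 56.8% of GA and 54.3% of control neutrophil-like cells, and in 26.3% and 29.2% when each cell was thinned to 2000 UMIs. Clusters differed far more than libraries did. Dividing precursor-like cells held 41.0 and 43.5 CPM, and mature neutrophil-like cells of cluster 1 held 509 and 482 CPM and of cluster 4 held 311 and 368 CPM. Of 8 neutrophil clusters, 7 were lower in GA, 5 of them with an interval below 0.

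Cxcr2, the receptor that draws neutrophils out of the marrow, stood at 502 and 441 CPM in neutrophil-like cells, a log2 ratio of 0.19 [0.15, 0.23]. In thinned cells with a Cxcr4 UMI, 72.5% of GA and 70.5% of control cells also had a Cxcr2 UMI, and in cells without one, 60.0% and 55.2% did. In each library Cxcr2 was thus found more often in cells that had a Cxcr4 UMI. These shares pool all neutrophil clusters, from dividing precursors to mature cells, and were not split by cluster. The part of maturity in this was not tested.

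Among other receivers, Cxcr4 was lower in GA in macrophages and higher in osteoclasts. Macrophage-like or monocyte-like cells held 146 CPM in GA and 192 CPM in control, a log2 ratio of −0.40 [−0.45, −0.34] and −0.13 at equal cluster shares. Of their 15 clusters, 5 had an interval above 0 and 6 an interval below 0. Osteoclast-like cells held 140.1 and 81.4 CPM, a log2 ratio of 0.78 [0.50, 1.06], in 30 GA and 63 control cells. B-like cells, whose precursors depend on CXCL12, held 143 and 141 CPM, a log2 ratio of 0.02 [−0.12, 0.15]. Basophil-like or mast-like cells held the highest level of any class, at 339 and 340.2 CPM. T, NK or innate lymphoid-like cells held 155 and 131 CPM and dendritic-like cells 129.9 and 117 CPM, and neither difference was detectable at this depth. Myeloid progenitor-like cells held 41.9 and 50.1 CPM, a log2 ratio of −0.26 [−0.45, −0.06]. The scavenger receptor Ackr3, which removes CXCL12, was found chiefly in the mesenchymal lineage, at 326 and 225 CPM, a log2 ratio of 0.54 [0.51, 0.57].

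**Figure D4:**
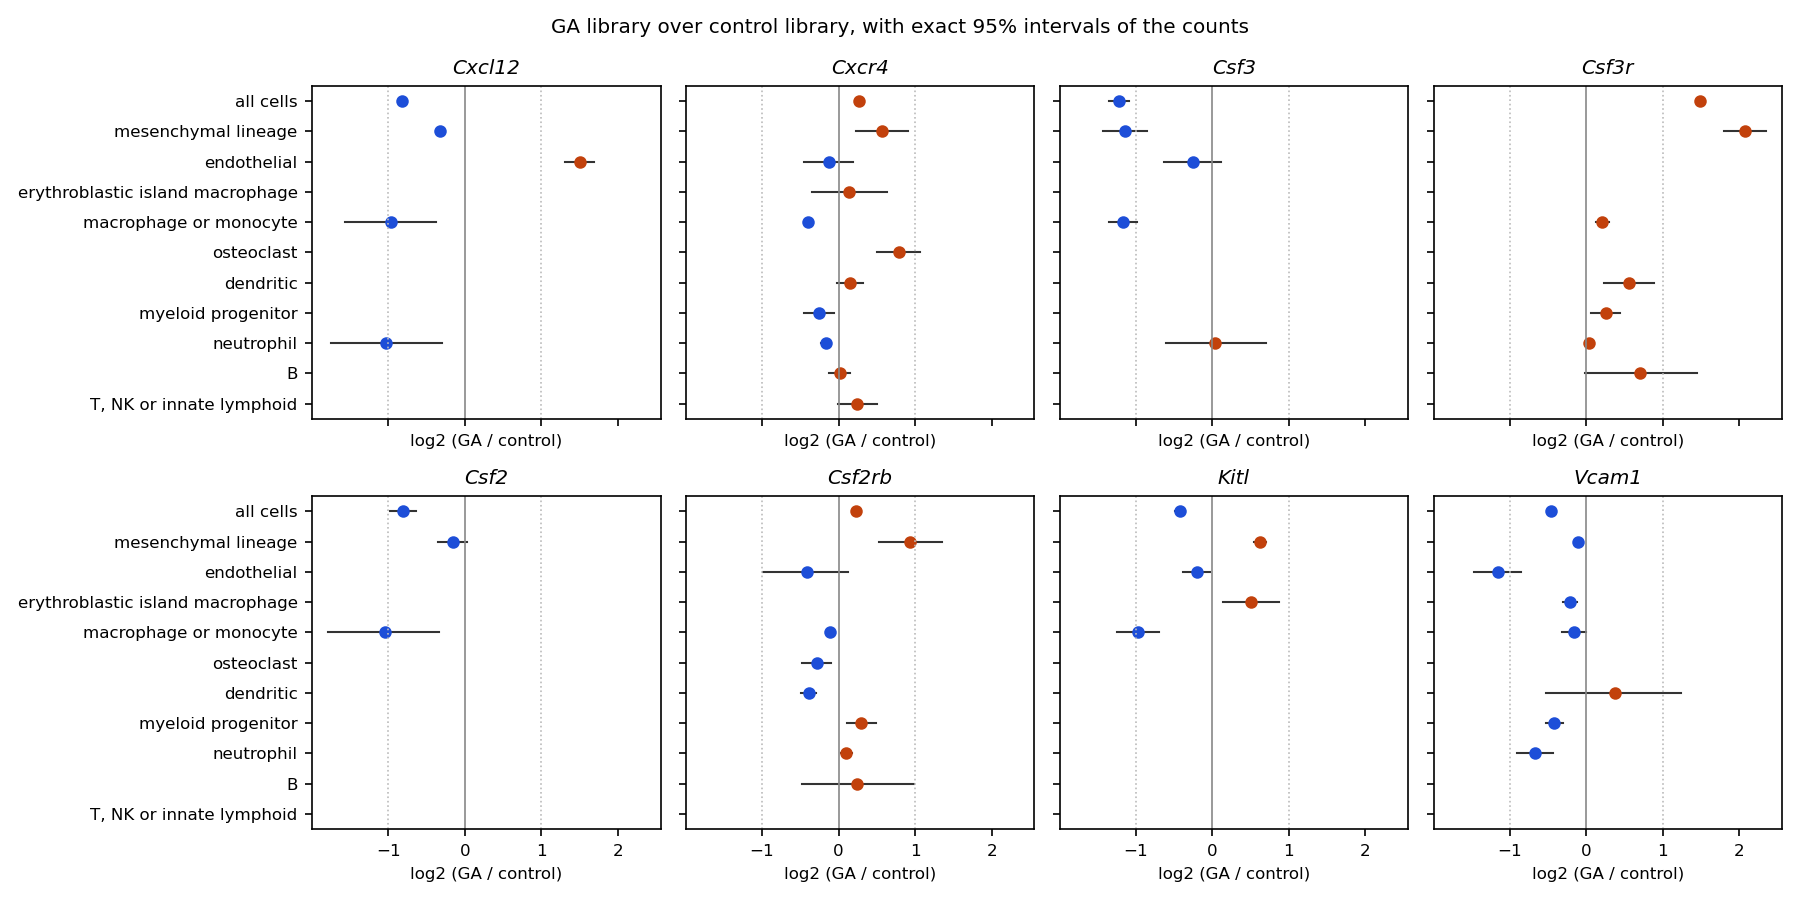
Log2 ratio of GA over control for each gene in all cells and in 10 classes where each library had at least 20 UMIs, with exact 95% intervals. Solid lines mark equality and dotted lines a 2-fold difference. Cxcl12 lies at 1.50 in endothelial-like cells and −0.32 in the mesenchymal lineage, and Csf3r lies at 0.04 in neutrophil-like cells.

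Csf3r was higher over all cells in GA, and its CPM within neutrophil-like cells was nearly the same. Over all cells it stood at 210.0 CPM in GA (33712 UMIs) and 75.2 CPM in control (13810 UMIs), a log2 ratio of 1.48 [1.45, 1.51]. Within neutrophil-like cells it was 694 CPM and 676 CPM, a log2 ratio of 0.04 [0.01, 0.07], and 0.19 relative to the median gene of the class. At equal class shares the ratio over all cells was 0.09. Neutrophil-like cells held 87.9% of its UMIs in GA and 76.6% in control. A UMI was present in 95.2% of GA and 93.6% of control neutrophil-like cells, against 4.27% and 2.25% of B-like cells, at median depths of 6472 and 5934 UMIs.

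Csf3r differed strongly between the neutrophil clusters, and in both libraries it was lowest in the dividing precursors and highest in mature cells. Dividing precursor-like cells held 96.5 CPM in GA and 94.7 CPM in control, and non-dividing immature cells held 215 and 199 CPM. The mature clusters 1 and 4 held 1802 and 1686 CPM and 2272 and 2147 CPM. The largest gap between libraries in any neutrophil cluster was a log2 ratio of 0.11, far less than the differences between clusters. Upstream, myeloid progenitor-like cells held 55.1 and 46.2 CPM, a log2 ratio of 0.26 [0.07, 0.45]. Macrophage-like or monocyte-like cells held 71.8 and 62.0 CPM, a log2 ratio of 0.21 [0.13, 0.29], and 0.10 at equal cluster shares. The median gene of the macrophage-like class was at 0.11. The part of neutrophil RNA in the macrophage-like difference was not tested.

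**Figure D5:**
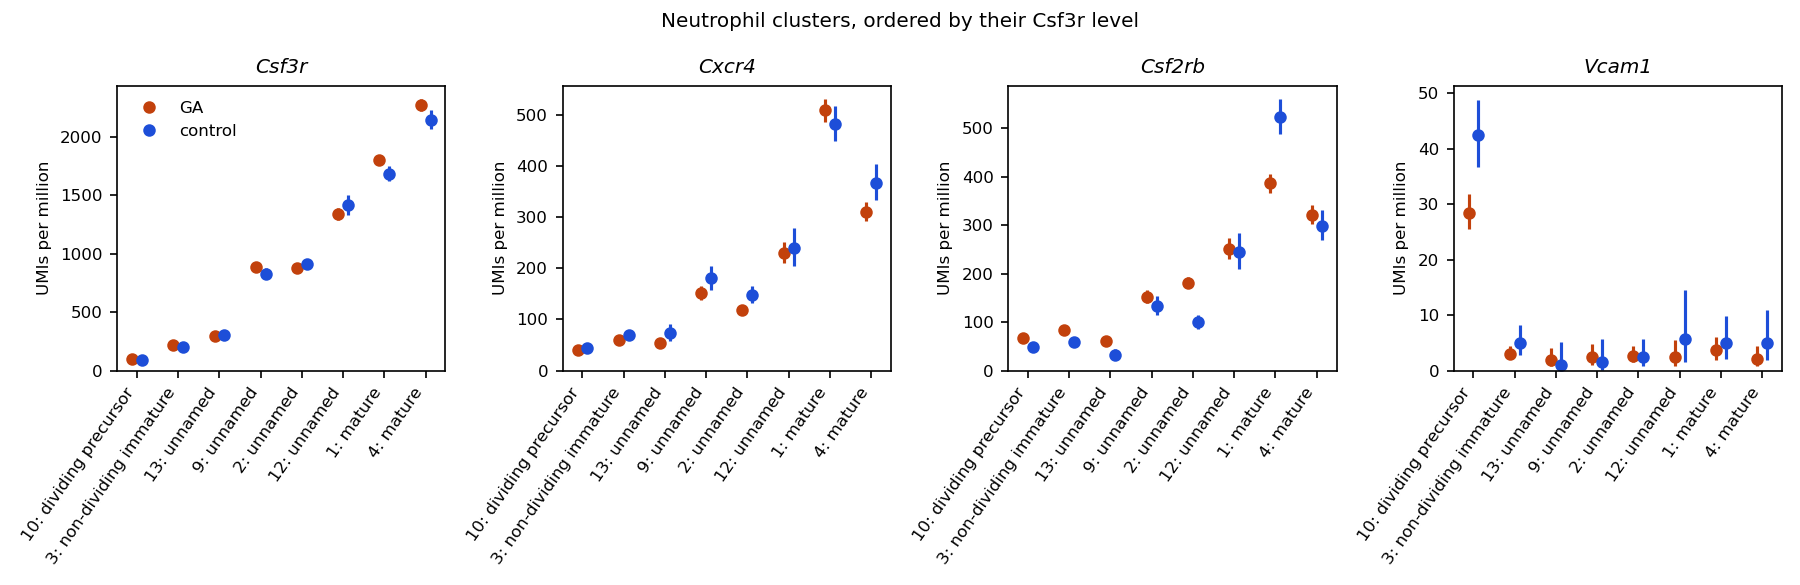
Csf3r, Cxcr4, Csf2rb and Vcam1 (CPM) in 8 neutrophil-like clusters ordered by Csf3r, GA in orange, control in blue, with lines for exact 95% intervals. Csf3r climbs from 96.5 and 94.7 CPM in the dividing precursor cluster to 2272 and 2147 CPM in mature cluster 4, and Vcam1 is highest in the dividing precursor cluster.

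In the mesenchymal lineage, where Csf3r is not a usual transcript, it was at 7.21 CPM in GA and 1.71 CPM in control, a log2 ratio of 2.07 [1.802, 2.35]. S100a8 was at 699 and 81.3 CPM in the mesenchymal-like cells. A cluster of 17 GA and 3 control cells led by S100a8 and Ngp held 122 of the 339 GA UMIs and 13 of the 165 control UMIs of Csf3r. The part of neutrophil RNA in this difference was not tested.

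Csf3 had the most negative ratio of the 8 genes over all cells, and it sat in few cells. It stood at 4.13 CPM in GA (663 UMIs in 148 cells) and 9.57 CPM in control (1758 UMIs in 275 cells), a log2 ratio of −1.21 [−1.34, −1.08], and −0.87 at equal class shares. As a mean of the CPM of single cells, which gives shallow cells the same weight as deep ones, the ratio turned to 0.15. The 10 cells with the most UMIs held 40.6% of the GA UMIs and 35.1% of the control UMIs. Macrophage-like or monocyte-like cells held 10.1 CPM in GA and 22.8 CPM in control, a log2 ratio of −1.17 [−1.36, −0.99], with a UMI in 3.73% and 7.95% of cells. At equal shares of their clusters the ratio was −0.50. Among these clusters the level was highest in clusters 1 and 12. Cluster 1, led by Csf3 itself with Il10 and Hbegf, held 69.9 and 68.2 CPM in 126 GA and 272 control cells. Cluster 12, led by Areg, Il1b and Ptgs2, held 71.1 and 87.8 CPM. In these 2 clusters the libraries did not differ beyond counting error. Lower levels in GA were found in clusters with little Csf3, such as Arg1-high cells at 0.499 and 8.97 CPM (2 and 65 UMIs).

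In the mesenchymal lineage Csf3 was at 2.68 CPM in GA and 5.89 CPM in control, a log2 ratio of −1.14 [−1.43, −0.86]. At equal cluster shares the ratio was −0.49. A Csf3 UMI was found in 2.31% and 5.21% of cells. Its highest stromal levels were in the Cd34-high cluster 5, at 25.4 and 28.2 CPM, and the fibroblastic progenitor-like cluster 9, at 27.0 and 30.3 CPM in GA and control, and neither difference was detectable at this depth. Endothelial-like cells held 92.5 and 110.0 CPM, a log2 ratio of −0.25 [−0.63, 0.12]. Their sinusoidal cells held 149 and 168 CPM, with 72 of the 78 GA UMIs and 202 of the 212 control UMIs in 5 cells each. Neutrophil-like cells held 1.83 and 1.79 CPM. Smaller shares of macrophage-like and mesenchymal cells thus had a Csf3 UMI in GA, while the levels in the clusters richest in it were close.

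Csf2 was found in few cells, mostly of the mesenchymal lineage. Over all cells it stood at 2.58 CPM in GA (415 UMIs in 52 cells) and 4.51 CPM in control (829 UMIs in 90 cells), a log2 ratio of −0.80 [−0.98, −0.63], and −0.04 at equal class shares. The mesenchymal lineage held 78.8% and 90.3% of it, at 6.95 and 7.77 CPM, a log2 ratio of −0.16 [−0.35, 0.03]. At equal cluster shares the lineage ratio was −0.84. Of its 12 clusters, 1 had an interval above 0 and 3 an interval below 0. Macrophage-like or monocyte-like cells held 24 and 61 UMIs. In the lineage it was found in 27 GA cells (3.11%) and 71 control cells (4.11%), of which 1 and 5 also had a Csf3 UMI. The 10 richest cells held 70.1% of the GA and 48.7% of the control UMIs, so single cells moved these levels.

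In T, NK or innate lymphoid-like cells Csf2 gave 57 UMIs in 10 of 192 GA cells and 3 UMIs in 3 of 223 control cells. A single GA cell held 45 of the 57, together with 61 UMIs of Il5, 64 of Gata3 and 0 of Il17a. Il5 and Csf2 are products of type 2 lymphoid cells, whose factor is Gata3. Il17a, which induces G-CSF in stroma, gave 68 UMIs in GA and 150 in control, or 36.0 and 84.7 CPM, a log2 ratio of −1.23 [−1.67, −0.81]. All of these Il17a UMIs lay in 1 unnamed cluster of 20 GA and 45 control cells, in which the levels were 451 and 539 CPM. The same cluster held 52 of the 57 GA UMIs of Csf2, including the 45 of the single cell.

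Csf2rb was spread over the myeloid classes. Basophil-like or mast-like cells held the most, at 784 and 686 CPM, followed by dendritic-like cells at 360.0 and 472 CPM, with a log2 ratio of −0.39 [−0.49, −0.30]. Macrophage-like or monocyte-like cells held 211 and 228 CPM, a log2 ratio of −0.12 [−0.16, −0.07], and osteoclast-like cells 232 and 283 CPM. Neutrophil-like cells held 150.4 CPM in GA and 140.1 CPM in control, a log2 ratio of 0.10 [0.03, 0.17], and 0.25 relative to the median gene of the class. Csf2rb was higher in GA in 7 of 8 neutrophil clusters, 4 of them with an interval above 0. Among these were the unnamed cluster 2, at 181 and 99.2 CPM, and dividing precursor-like cells, at 66.6 and 49.0 CPM. It was lower in GA only in the mature cluster 1, at 386 and 523 CPM. Csf2rb2 in neutrophil-like cells was at 13.1 and 8.25 CPM, and the alpha chain Csf2ra was at 193 and 196 CPM, a log2 ratio of −0.03 [−0.09, 0.04]. Over all cells Csf2rb was 103.7 and 88.5 CPM, a log2 ratio of 0.23, and −0.07 at equal class shares.

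The members past a 2-fold difference were counted by class, beside the share of all genes past it. Genes with at least 50 UMIs in both libraries together were compared, and a ratio past 2-fold was used as a size rule without a test. Over all cells 12.6% of 18381 genes passed it, and of the 8 members Csf3r was higher and Csf3 lower by that much. In the mesenchymal lineage 5.88% of genes passed it, and again Csf3r and Csf3 of 8. In macrophage-like or monocyte-like cells 8.48% passed it, and Csf3 and Csf2 of 8, both lower in GA. In endothelial-like cells 6.09% passed it, and of 6 members Cxcl12 was higher and Vcam1 lower. In neutrophil-like cells 3.09% passed it, and of 6 members Cxcl12 alone, from 40 and 30 UMIs at the background level. In myeloid progenitor-like cells 3.41% passed it, and 0 of 4 members. In T, NK or innate lymphoid-like cells 1.54% passed it, and Csf2 of 2 members, with 45 of its 57 GA UMIs in the 1 cell described above. The 0 of 3 in B-like cells stood against 0.841% of genes. In dendritic-like cells 3.26% passed it, with Kitl lower of 4 members (8 and 84 UMIs), and in osteoblast-like cells 3.84% passed it, with Vcam1 higher (45 and 9 UMIs) and Kitl lower of 3. Of 2 members in osteoclast-like cells 0 passed it, against 2.84% of genes, and in island macrophage-like cells 5.53% passed it, with Csf2rb higher of 5 members (55 and 16 UMIs). In erythroid-like cells 6.95% passed it, and Csf2rb and Vcam1 of 3 members, both lower in GA. Vcam1 gave 1 UMI in the 69 GA cells and 133 UMIs in 5 of the 104 control cells, or 0.662 and 73.5 CPM, a log2 ratio of −6.80 [−12.11, −4.29], and Csf2rb gave 7 and 52 UMIs, 50 of the 52 in 5 control cells. In Schwann-like or neural-like cells, where 47.2% of genes passed it, Kitl was lower in GA as the 1 member compared (0 and 68 UMIs in 15 and 13 cells). The class held only 39755 UMIs in GA against 389320 in control, and the interval of the Kitl log2 ratio reached up to −0.87. Of 2 members each, 0 passed it in basophil-like or mast-like, pericyte-like or smooth muscle-like and plasmacytoid dendritic-like cells, against 7.99%, 20.3% and 5.85% of genes, and 0 of 3 in the low-depth cells, against 31.8%.

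The wider pathway was counted over 36 genes chosen from general knowledge of these signals. In the mesenchymal lineage 26 were compared, of which 4 were past 2-fold higher in GA and 1 lower, against 2.91% and 2.97% of all genes. Higher were Dpp4, the angiopoietin receptor Tek, the integrin chain Itgb7 and Cxcr2. The ratios of pathway genes were not recomputed at equal cluster shares. Cluster 2 (Cd34-high), which was led by Tek, held 127 of the 867 GA cells and 142 of the 1726 control cells of the lineage. Dpp4, the peptidase that cuts CXCL12, was at 109.8 and 46.0 CPM, a log2 ratio of 1.26 [1.20, 1.32]. Cxcr2, a neutrophil gene, was at 3.15 and 0.653 CPM, and the part of neutrophil RNA in this difference was not tested. The part of RNA from other classes in the Itgb7 difference was not tested either. Kit was lower in the lineage, at 0.489 and 1.86 CPM. In neutrophil-like cells 19 were compared, with 0 higher and 4 lower, against 0.413% and 2.68% of all genes. The lower ones were Csf1, the macrophage growth factor, at 32.2 and 78.7 CPM with a log2 ratio of −1.29 [−1.40, −1.18], and Cxcl5, Itgb7 and Il23a. In macrophage-like or monocyte-like cells 22 were compared, with 2 higher and 5 lower, against 5.82% and 2.67% of all genes. Higher were Itgb7, at 134 and 58.7 CPM with a log2 ratio of 1.19 [1.12, 1.27], and Cxcr2, at 4.18 and 0.473 CPM. The neutrophil transcript S100a8 was at 1399 and 143 CPM in these cells, and the part of neutrophil RNA in the Cxcr2 difference was not tested. The lower ones were Ackr3, Cxcl5, Itga9, Cxcl1, a ligand of CXCR2, at 188 and 436 CPM with a log2 ratio of −1.21 [−1.26, −1.17], and Il23a, which sustains Il17a-making cells, at 0.215 and 2.36 CPM (7 and 95 UMIs). In endothelial-like cells 12 were compared, with 0 higher and Ackr3 and Kit lower, against 3.62% and 2.46% of all genes.

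Genes of like pattern were those with the highest Pearson correlation of log2(CPM + 1) with a member over 14 classes in both libraries, 28 points that share libraries and so are not independent. Cxcl12 was closest to Adamts4 (r = 0.970), Tm4sf1 and Lama4, and Kitl to Ptprm (r = 0.941), Spats2 and Mb21d2. Vcam1 was closest to Gm1673 (r = 0.833) and Csf3 to Ch25h (r = 0.938). Among the receptors, Csf3r was closest to Mcemp1 (r = 0.939) and Trem1, Cxcr4 to Nfkbid (r = 0.912), and Csf2rb to its copy Csf2rb2 (r = 0.921) and Gab2. Csf2, held by few cells, reached r = 0.835 with Nmnat2.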

How the data were processed

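The authors deposited 1 matrix of counts per library, UMIs per gene and cell barcode, from 10x 3′ libraries. The file headers name Cell Ranger 7.0.1 and the labels the build mm10, and no normalization was applied. Library totals were 182949385 (GA) and 214993030 (control) UMIs, and no column was left unmapped. Here, barcodes with 500 to 140000 UMIs, 200 to 9500 genes and up to 15% mitochondrial UMIs were kept (9036 and 8093). Scrublet, run through scanpy 1.11.5, marked 0 and 39 (0.447%) barcodes, which was taken as a failure, so the highest scores were removed at 0.8% per 1000 barcodes (656 and 540 cells). Cells were clustered on 2000 variable genes, without the 8 genes and their pathway, with Pearson residuals (theta 100), 50 principal components, Harmony, 15 neighbours and Leiden (leidenalg 0.10.2) at resolution 1. Classes were named from marker lists, and clusters under 1 in 3 of the typical depth with no marker among their top 10 genes stayed unnamed. A name needed at least 3 markers of its list, and clusters within a class were tried only on the lists of that class. Clusters of all cells that the class lists left unnamed were then tried on the lists within classes. The mature neutrophil clusters 1 and 4 were named in that way, as was a macrophage cluster of 302 cells, by the island macrophage list. Names were rebuilt here and can differ from the study's.

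UMIs were summed per class and library, with exact Poisson intervals for levels, exact conditional binomial intervals for ratios and Clopper-Pearson intervals for shares (SciPy 1.17.1). These 95% intervals cover counting error and not the variation between mice. As each condition has 1 library, no test was made. Shares of cells with a UMI were also computed after thinning cells to 2000 UMIs. Equal-share ratios give each class or cluster its mean share of UMIs over both libraries. The steps for ratios were checked on simulated counts. All 8 genes were measured in each class. The 36 pathway genes are counted by a 2-fold size rule, and some of them are named with their values. The endothelial, island macrophage and single-cell details were picked out after the values were seen. Members and lists were chosen with earlier results of these data known. Gene positions are from GENCODE (GRCm38). Alternatives concerned doublets, the mitochondrial limit, Harmony, resolution, transformation, variable genes, naming, minimum depth, scaling, cell weighting, thinning and the richest cells. Equal shares, the low-depth cluster and cluster 13 of the lineage were added after seeing the data.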

Additional observations from a re-analysis of the deposited data

Results flagged for a closer look

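Several of the 8 genes differed in opposite directions between cell classes, with both intervals clear of 0. None of these differences between classes was tested, since each condition has 1 library. For Cxcl12 the log2 ratio of GA over control was 1.50 in endothelial-like cells, where 1 GA cell held 247 of the 503 GA UMIs. In the mesenchymal lineage it was −0.32, turned to 0.18 at equal cluster shares and lay between −0.040 and −0.025 under 4 other settings. For Cxcr4 it was 0.78 in osteoclast-like cells and −0.40 in macrophage-like or monocyte-like cells (−0.13 at equal cluster shares). For Kitl it was 0.63 in the mesenchymal lineage and −0.97 in macrophage-like or monocyte-like cells (0.02 at equal cluster shares). For Csf2rb it was 0.30 in myeloid progenitor-like cells and −0.39 in dendritic-like cells.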

How the results depend on the processing

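No paired analysis was possible because each group has 1 library. The sign of Kitl in the mesenchymal lineage, Cxcr4 in neutrophil-like cells and Csf2 over all cells was the same under every alternative run. For Cxcl12 in the lineage (−0.32) the log2 ratio was −0.036 at resolution 0.5, −0.025 with log1p values, −0.22 with cells named one by one, −0.036 with cells of at least 2000 UMIs and −0.040 with the low-depth cells added, and it reversed to 0.18 at equal cluster shares. For Vcam1 in the lineage (−0.10) it was −0.15 as a mean over cells, −0.41 after thinning and −0.20 without the 5 richest cells, and it reversed to 0.012 at equal cluster shares. For Kitl (0.63) it was 0.48 at equal cluster shares. In neutrophil-like cells Cxcr4 (−0.16) was −0.013 relative to the median gene and −0.089 after thinning. Csf3r (0.04) was 0.13 without Harmony, 0.12 with cells named one by one and 0.19 relative to the median gene, and reversed to −0.014 as a mean over cells and −0.018 after thinning. Csf2rb (0.10) was 0.39 without Harmony and 0.25 relative to the median gene, and reversed to −0.029 as a mean over cells and −0.10 after thinning. Over all cells Csf3 (−1.21) was −0.96 after thinning and −0.87 at equal class shares, and reversed to 0.15 as a mean over cells. Csf2 (−0.80) was −0.41 after thinning, −1.25 without the 5 richest cells and −0.045 at equal class shares. Genes past 2-fold were 5.88% in the lineage, 3.51% with at least 200 UMIs and 15.2% with no filter, and 3.09%, 1.01% and 16.6% in neutrophil-like cells. The cause of these shifts was not tested, except that equal shares hold makeup fixed by construction. Small neutrophil ratios are within what these choices move.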
